A study of Mus musculus with 12 samples.

Results

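The results concern 35 genes of the endoplasmic reticulum (ER) folding machinery and of the unfolded protein response, taken from the 12393 mouse genes that the arrays name. A gene entered by its symbol on the array platform, and each was read by the probe set with the highest mean over all 12 arrays. Of the 35 genes, 24 form the chaperone branch, which holds 11 folding factors, 6 disulfide enzymes and 7 genes of translocation and ER-associated degradation. 6 genes form the Atf4 branch, 4 are sensors or their transcription factors, and the oxidase Ero1a was kept apart from both branches because hypoxia and the Atf4 and Ddit3 branch are both known to raise it. The rule goes by symbol and uses no measured value other than the mean level that picks the probe set.

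The 6 knockout arrays (KO) held RNA from mammary tumours that lack Hunk, a kinase related to Snf1 and AMPK, and the 6 wild-type arrays (WT) RNA from tumours with intact Hunk. All 12 tumours came from female FVB mice with the MMTV-c-myc transgene, in which a mouse mammary tumour virus promoter drives c-Myc, so the transgene is common to both groups. Hunk had been disrupted by exchanging its presumed promoter and first exon for a floxed pGKneo cassette, the mice had been mated, and they were killed when a tumour reached 20 mm across. The labels number the arrays without saying whether they stand for different mice. A numbered tumour below is thus the sample on 1 array, and p-values measure a spread between samples that may be technical in part. Values are log2 GCRMA signals as deposited, and a positive log2 difference means a higher level in KO tumours.

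Secreted and membrane proteins fold in the ER with the help of chaperones, lectins and disulfide isomerases. When unfolded proteins accumulate, the sensors Ern1, Atf6 and Eif2ak3 signal to the nucleus. Ern1 splices the Xbp1 transcript and Atf6 is cleaved to a transcription factor, and both routes raise chaperone and degradation genes, while Eif2ak3 phosphorylates a translation initiation factor, which slows translation and lets Atf4 protein accumulate. Atf4 in turn drives amino acid and stress genes such as Asns, Ddit3 and Trib3. Milk-secreting mammary epithelium is rich in ER and its secretory load is mostly casein. The arrays read total transcript of each gene, not Xbp1 splicing, Atf6 cleavage or translation, and in bulk tumour RNA fewer cells of a type and less RNA per cell cannot be told apart.

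The promoters of the genes are shown first because the branches differ in the DNA elements through which these factors are known to act. RefSeq promoter sequences of the GRCm38.p6 build, from 250 bases before to 50 bases after the transcription start, were at hand for 31 of the 35 genes, Hyou1, Manf, Derl1 and Atf6 being the others. Both strands were searched for 4 motifs. The ER stress response element (ERSE), bound by NF-Y and by Atf6 or Xbp1, was searched as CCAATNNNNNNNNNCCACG, where N is any base. It was found in 9 of the 21 chaperone-branch genes with a promoter (42.9%), in 0 of 6 Atf4-branch genes and in 0 of 3 sensors, against 37 of all 27025 genes in the table (0.137%). This element was originally described in promoters of ER chaperone genes, Hspa5 among them, so that share is a description of known targets. Below, Hspa5 is given over the 250 bases before its start and the other genes as the motif with up to 20 bases on either side, each read 5′ to 3′ on the gene's own strand, with the motif in capitals.
Hspa5 (chr2:34771840-34772089, plus strand): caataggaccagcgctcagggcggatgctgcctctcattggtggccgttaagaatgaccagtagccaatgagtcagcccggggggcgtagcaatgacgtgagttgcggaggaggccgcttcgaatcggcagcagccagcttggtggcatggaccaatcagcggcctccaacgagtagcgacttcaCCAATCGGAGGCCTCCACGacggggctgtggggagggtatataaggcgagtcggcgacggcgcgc
Hsp90b1 (chr10:86705618-86705676, minus strand): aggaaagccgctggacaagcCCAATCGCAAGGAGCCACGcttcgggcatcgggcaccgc
Hsp90b1 (chr10:86705513-86705571, minus strand): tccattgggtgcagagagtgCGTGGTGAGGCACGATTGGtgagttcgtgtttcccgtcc
Calr (chr8:84847055-84847113, minus strand): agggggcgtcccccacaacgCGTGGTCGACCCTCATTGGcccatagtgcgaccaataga
Canx (chr11:50325780-50325838, minus strand): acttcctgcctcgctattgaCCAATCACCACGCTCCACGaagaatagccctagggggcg
Dnajc3 (chr14:118937807-118937865, plus strand): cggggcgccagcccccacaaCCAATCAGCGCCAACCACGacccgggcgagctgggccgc
Creld2 (chr15:88819500-88819558, plus strand): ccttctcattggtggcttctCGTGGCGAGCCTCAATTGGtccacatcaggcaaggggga
Pdia6 (chr12:17266471-17266529, plus strand): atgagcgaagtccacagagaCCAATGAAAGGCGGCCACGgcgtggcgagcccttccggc
Ero1b (chr13:12565662-12565720, plus strand): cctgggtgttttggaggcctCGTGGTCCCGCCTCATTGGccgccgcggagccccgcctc
Syvn1 (chr19:6046512-6046570, plus strand): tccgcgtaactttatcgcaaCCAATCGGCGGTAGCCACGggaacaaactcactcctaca
The motif began between 44 bases (Syvn1) and 212 bases (Hsp90b1) before the start, and Hsp90b1 held 2 matches of opposite orientation. Matches that read CGTGG first lie on the opposite strand.

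The 3 further motifs were found in fewer of the 31 genes. ERSE-II, searched as ATTGGNCCACG, was found in Herpud1 and, just after the start, in Dnajb11, and in 12 genes of the table (0.0444%). The unfolded protein response element of Xbp1, searched as TGACGTGG, was found in Txndc5 alone among the 31 genes and in 193 genes of the table (0.714%). The C/EBP and ATF response element (CARE), to which Atf4 binds, was searched as TGATGNAA. It was found in 3 of 6 Atf4-branch genes (Trib3, where it lies after the start, Asns and Chac1), in 2 of 21 chaperone-branch genes (Herpud1 and Txndc5) and in 1219 genes of the table (4.51%). None of these matches overlapped another. The stretches below show the ERSE-II and then the CARE of Herpud1, which held both kinds, and the CARE of Asns and Chac1, again with the motif in capitals.
Herpud1 (chr8:94386357-94386407, plus strand): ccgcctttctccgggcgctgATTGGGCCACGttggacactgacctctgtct
Herpud1 (chr8:94386297-94386344, plus strand): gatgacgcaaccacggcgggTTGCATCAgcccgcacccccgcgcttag
Asns (chr6:7693210-7693252, minus strand): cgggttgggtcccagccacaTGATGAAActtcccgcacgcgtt
Chac1 (chr2:119351029-119351076, plus strand): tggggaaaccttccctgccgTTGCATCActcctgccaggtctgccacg
A match describes the letters of the window and is not evidence that a factor binds there. The 9 chaperone-branch genes with an ERSE had log2 differences between -0.24 and 1.01 with a median of 0.31, and the 12 without one between -0.20 and 0.99 with a median of 0.13, with 0 past the threshold in either set.

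**Figure D1:**
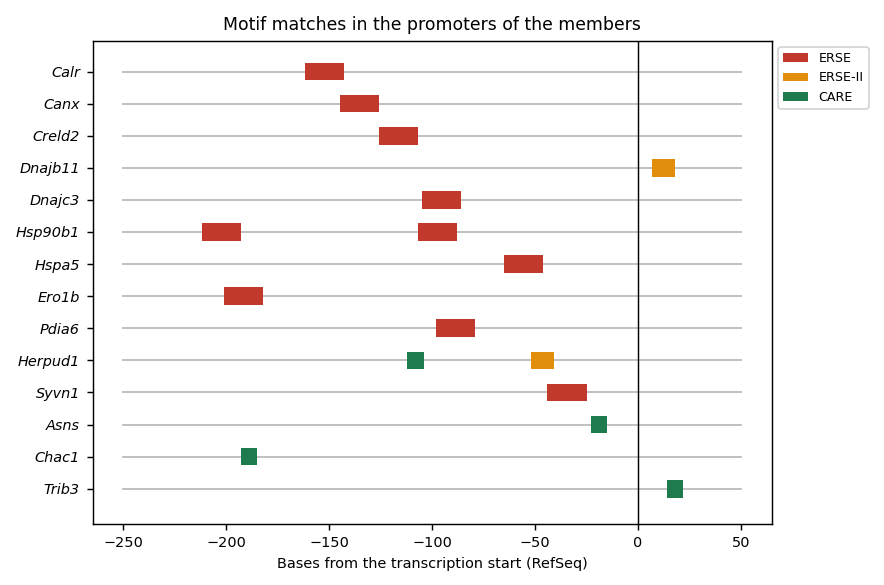
Positions of ERSE, ERSE-II and CARE matches in promoters of the genes that hold one, as distance from the transcription start in bases; Txndc5, which has several promoters and the only match to TGACGTGG, is left out. The ERSE matches lie in chaperone-branch genes, between 212 and 44 bases before the start.

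Array medians over all probe sets were 3.91 to 4.10 in KO tumours and 3.87 to 4.01 in WT tumours. Array background, taken as the highest Bacillus control probe set, was 3.71 ± 0.15 in KO tumours and 3.60 ± 0.10 in WT tumours (SD, n = 6 each). RNA quality was read from the beta-actin controls, whose 3′ probe set exceeded the 5′ one by 1.26 to 1.72 in KO tumours and by 1.21 to 1.34 in WT tumours. Only KO tumour 1, at 1.26, lay within the WT range, and every other KO tumour lay above every WT tumour. The Gapdh controls differed by 0.06 to 0.29 in KO tumours and -0.03 to 0.19 in WT tumours, with the higher mean in KO tumours. RNA quality by beta-actin thus largely went with the group, and a fit with it as a covariate separates them poorly. Hunk itself read 2.95 ± 0.17 in KO tumours and 4.21 ± 1.05 in WT tumours (SD, n = 6 each), and was above background in 0 of 6 KO tumours and 4 of 6 WT tumours; whether its probe set lies outside the deleted part was not checked. KO tumours 4 and 5 were the most alike of all pairs of arrays, with an SD of 0.26 between them over all probe sets, against 0.41 for the next pair, and results were also computed with both averaged as 1 sample. The number of arrays limits the precision throughout.

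Of the 35 genes, 32 lay above the filter on low values (a mean above 3.98, the median of all probe sets). Chac1 and Ppp1r15a were at or below background on every array, and Atf6 was above it in 2 KO tumours and 0 WT tumours. Tested by limma with Benjamini-Hochberg adjustment over all 6825 genes, 1 of the 32 genes was higher in KO tumours (Ero1a), 0 were lower and 31 did not pass an adjusted p of 0.05. Across all genes tested 3.34% passed, with 1.66% higher and 1.68% lower, so that 1 of 32 (3.12%) is close to the background share. At an unadjusted p under 0.05 there were 7 of the 32 (21.9%), against 19.5% of all genes tested. 6 of these 7 had positive differences (Calr, Dnajb11, Sdf2l1, Ero1a, Herpud1 and Syvn1) and 1 a negative one (Trib3). The log2 difference was positive for 21 and negative for 11 of the 32 genes, with a median of 0.13 against 0.01 for all genes tested. The spread within groups was wide, with a median residual SD of 0.48 against 0.33 for all genes tested. For 21 of the 32 genes the 95% interval nevertheless lay within ± 1 on the log2 scale, a doubling or halving of signal.

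**Figure D2:**
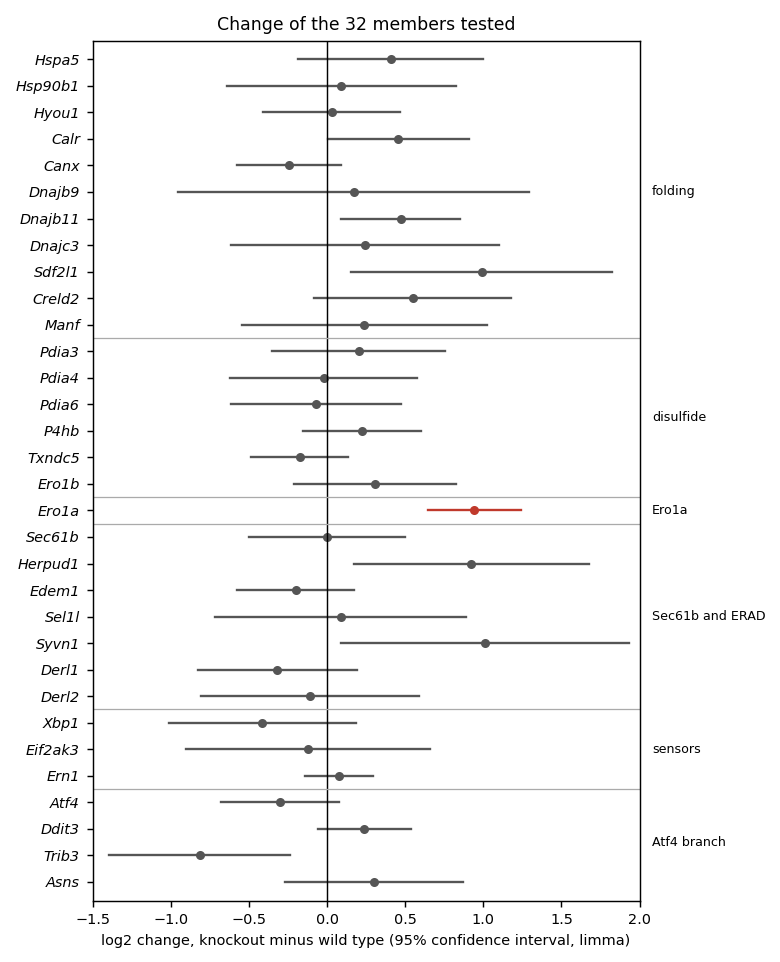
Log2 difference, KO minus WT, of the 32 tested genes with its 95% confidence interval, grouped by role. Ero1a, at 0.94, is the only one past the adjusted threshold, and 25 intervals include 0.

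Ero1a, the oxidase that passes electrons from protein disulfide isomerase to oxygen, was the member that differed between the groups. The log2 signal was 9.54, 9.76, 9.45, 9.74, 9.37 and 9.47 in KO tumours 1 to 6, against 8.39, 8.71, 8.88, 8.20, 8.84 and 8.64 in WT tumours 1 to 6. Every KO tumour lay above every WT tumour, a separation found in 3.15% of all genes tested (1.71% with KO tumours above and 1.44% with KO tumours below). The means were 9.55 ± 0.16 in KO tumours and 8.61 ± 0.27 in WT tumours (SD, n = 6 each), a 1.92-fold difference (log2 0.94, SE 0.14, 95% interval 0.65 to 1.24, limma adjusted p = 0.00378). Its other probe sets gave 1.06 and 0.98. The call did not hold with the beta-actin 3′ to 5′ difference as a covariate (log2 0.90, adjusted p = 0.0604) or with the luminal marker mean as a covariate (log2 0.72, adjusted p = 0.398). The mean of the 9 luminal markers was itself higher in KO tumours, by 0.91. Their median difference was 0.39, with 2 of the 9 negative, and the largest was that of Krt19, at 4.08. In that fit 2 of all genes tested passed, against 228 in the fit reported. It therefore cannot separate the luminal markers from the group, here and where it is used below.

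Hypoxia and glycolysis genes were read beside Ero1a because low oxygen is known to raise both. Of 19 such genes listed, 17 were tested, 3 of them were higher in KO tumours (17.6%, against 3.34% of all genes tested), 0 were lower, and their median log2 difference was 0.61. The list did not point one way, since 4 of the 17 differences were negative, down to -2.18 for the oxygen-dependent prolyl hydroxylase Egln3 (adjusted p = 0.0641), which is named for that value. Aldoa, an aldolase, was 11.90 to 12.72 in KO tumours and 10.62 to 11.73 in WT tumours (log2 0.99, adjusted p = 0.0266). Ldha, a lactate dehydrogenase subunit, was 12.06 to 12.45 in KO tumours and 11.30 to 11.91 in WT tumours (log2 0.61, adjusted p = 0.025). Pgam1, a phosphoglycerate mutase, was 11.30 to 11.98 in KO tumours and 10.90 to 11.28 in WT tumours (log2 0.57, adjusted p = 0.025). In all 3 genes, as in Ero1a, the groups did not overlap. Each of the 3 calls was lost without KO tumour 4, those of Aldoa and Pgam1 also without KO tumour 5 and that of Pgam1 without WT tumour 4, with adjusted p up to 0.0612 for leaving out an array, whereas Ero1a kept its call whichever array was left out. With the beta-actin covariate the adjusted p of Aldoa, Ldha and Pgam1 was 0.0594, 0.0884 and 0.106, and with the luminal marker covariate 0.333, 0.496 and 0.388, so that these calls were lost in the same fits as that of Ero1a.

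Among the 11 folding factors 10 had a positive difference, 0 passed the test, and the median was 0.24. Hspa5 (BiP), the central chaperone of the ER and the restraint on all 3 sensors, had a lowest, median and highest log2 signal of 11.72, 12.32 and 13.23 in KO tumours, against 11.58, 11.71 and 12.52 in WT tumours. All 6 KO tumours lay above the WT median, yet only 3 lay above the highest WT tumour, and the difference of 0.41 (95% interval -0.19 to 1.00) had an adjusted p of 0.419. Hsp90b1 (Grp94), the ER member of the Hsp90 family, ran from 10.09 through a median of 11.21 to 12.23 in KO tumours, against 10.69, 11.00 and 11.57 in WT tumours. The KO tumours thus spanned the WT range on both sides, and the difference was 0.09 (interval -0.64 to 0.82, adjusted p = 0.893).

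The lectin chaperones, which hold glycoproteins during folding, pointed in opposite directions without passing the test. Calr, the soluble one, was 11.90, 12.61 and 12.88 in KO tumours (lowest, median and highest), against 11.70, 11.92 and 12.43 in WT tumours (log2 0.46, interval 0.01 to 0.91, adjusted p = 0.248). KO tumours 2, 3 and 6 lay above every WT tumour, and the other 3 inside the WT range. Canx, its membrane-bound relative, was 10.57, 10.78 and 11.13 in KO tumours, against 10.63, 11.01 and 11.53 in WT tumours (log2 -0.24, adjusted p = 0.388).

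Sdf2l1, a partner of BiP and the J-domain protein Dnajb11, had the largest difference of the folding factors. It was 7.46, 7.76 and 8.79 in KO tumours, against 5.83, 6.97 and 8.05 in WT tumours (log2 0.99, interval 0.15 to 1.83, adjusted p = 0.178). All 6 KO tumours exceeded the WT median, and the WT range was wide enough to reach past 5 of the 6. Dnajb11 itself was 5.98, 6.23 and 6.53 in KO tumours, against 5.28, 5.90 and 6.27 in WT tumours (log2 0.47, interval 0.09 to 0.85, adjusted p = 0.161). Creld2, a secreted ER stress protein, had a difference of 0.55 (adjusted p = 0.314). The other BiP co-chaperones Dnajc3 (0.24) and Dnajb9 (0.17), the BiP nucleotide exchange factor Hyou1 (0.03) and the secreted BiP-binding factor Manf (0.24) had adjusted p between 0.731 and 0.946. Dnajb9 varied most of these, from 4.93 to 7.36 in KO tumours and from 5.02 to 7.29 in WT tumours.

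The 6 disulfide enzymes split evenly, with 3 positive and 3 negative differences, 0 past the test and a median of 0.09. P4hb, the archetypal protein disulfide isomerase, was 11.42, 12.15 and 12.42 in KO tumours, against 11.47, 11.84 and 11.97 in WT tumours (log2 0.22, adjusted p = 0.48). 4 KO tumours lay above every WT tumour, KO tumour 4 near the bottom of the WT range and KO tumour 5 just below it. The isomerases Pdia3 (0.20), Pdia4 (-0.02), Pdia6 (-0.07) and Txndc5 (-0.18) had adjusted p between 0.502 and 0.969. Txndc5 was nearly constant in KO tumours, from 7.62 to 7.78, against 7.44 to 8.20 in WT tumours. Ero1b, the paralogue of Ero1a known for its role in secretory cells, did not share the separation of Ero1a, at 4.40, 4.60 and 5.63 in KO tumours, against 4.13, 4.51 and 5.01 in WT tumours (log2 0.31, adjusted p = 0.484). The intervals of all 6 enzymes lay within ± 1.

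In ER-associated degradation, misfolded proteins are recognised, moved back to the cytosol and ubiquitylated. Of the 7 genes of this group, Sec61b of the translocation channel included, 4 had positive differences and 0 passed, with a median of 0.00. Syvn1 (Hrd1), the ubiquitin ligase, was 4.76, 5.61 and 7.35 in KO tumours, against 4.15, 4.51 and 5.86 in WT tumours (log2 1.01, interval 0.09 to 1.93, adjusted p = 0.213). The value of 7.35 was that of KO tumour 1, and all 6 KO tumours exceeded the WT median. Herpud1, which organises the Syvn1 complex, was 6.78, 7.46 and 8.64 in KO tumours, against 5.99, 6.41 and 7.44 in WT tumours (log2 0.92, interval 0.17 to 1.67, adjusted p = 0.163). Its highest value was again in KO tumour 1, and its second probe set gave 0.42. Sel1l, the adaptor of Syvn1, had a difference of 0.09 and probe sets that differed in sign (-0.02 to 0.38), the mannosidase-like lectin Edem1 -0.20, the derlins Derl1 -0.32 and Derl2 -0.11, and Sec61b 0.00. The adjusted p of these 5 genes lay between 0.456 and 0.995.

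Of the sensors and Xbp1, 0 of the 3 tested passed, with a median difference of -0.12. Ern1 was 5.88, 6.10 and 6.25 in KO tumours, against 5.86, 6.02 and 6.13 in WT tumours (log2 0.07, interval -0.14 to 0.29, adjusted p = 0.695), the narrowest interval of the 32 tested members. Eif2ak3 (PERK) was 6.40, 7.26 and 8.56 in KO tumours, against 6.64, 7.60 and 7.92 in WT tumours (log2 -0.12, interval -0.90 to 0.66, adjusted p = 0.865), with KO tumour 1 the highest. Xbp1, the factor that Ern1 activates by splicing and that secretory epithelium needs, was 10.24, 11.55 and 11.60 in KO tumours, against 11.21, 11.46 and 12.03 in WT tumours (log2 -0.41, interval -1.01 to 0.19, adjusted p = 0.415). Its mean in KO tumours rested on KO tumours 4 and 5, at 10.24 and 10.33, below every WT tumour, while the other 4 KO tumours lay between 11.50 and 11.60. With KO tumours 4 and 5 averaged as 1 sample the difference was -0.24 (adjusted p = 0.614). Atf6 was 3.29 to 3.88 in KO tumours and 3.44 to 3.57 in WT tumours, near background, and no fold is given.

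The Atf4 branch held both directions. Atf4 was 9.05, 9.58 and 9.85 in KO tumours, against 9.42, 9.77 and 10.12 in WT tumours (log2 -0.30, interval -0.68 to 0.08, adjusted p = 0.35). Its 3 probe sets ranged from -0.30 to 0.11 and differed in sign, and Atf4 is controlled mainly through translation, which arrays do not read. Trib3, a pseudokinase induced by Atf4 and Ddit3, was 6.02, 6.59 and 6.95 in KO tumours, against 6.66, 7.21 and 8.38 in WT tumours (log2 -0.82, interval -1.40 to -0.23, adjusted p = 0.123). All 6 KO tumours lay below the WT median and 4 of them below every WT tumour, and the second probe set gave -0.58. Its adjusted p was the smallest after that of Ero1a and did not pass.

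Ddit3 (CHOP), the factor linked to cell death under lasting ER stress, was 5.17, 5.28 and 6.04 in KO tumours, against 5.11, 5.16 and 5.26 in WT tumours (log2 0.24, interval -0.06 to 0.53, adjusted p = 0.345). All 6 KO tumours lay above the WT median and 5 of them above the highest WT tumour, some only narrowly. The value of 6.04 was that of KO tumour 6, and the other 5 KO tumours read at most 5.45. Asns, the asparagine synthetase, was 9.19, 9.81 and 10.97 in KO tumours, against 9.28, 9.55 and 10.01 in WT tumours (log2 0.30, interval -0.27 to 0.87, adjusted p = 0.531). Chac1, a glutathione-degrading enzyme, read 2.60 to 2.70 in KO tumours and 2.55 to 2.65 in WT tumours, and Ppp1r15a, a phosphatase subunit that restores translation, read 2.26 to 2.43 in KO tumours and 2.22 to 2.36 in WT tumours, both at background. The probe sets of Atf4 and Asns end in _x_at and those of Hyou1, Canx, Xbp1 and Derl1 in _s_at, which can match related transcripts.

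**Figure D3:**
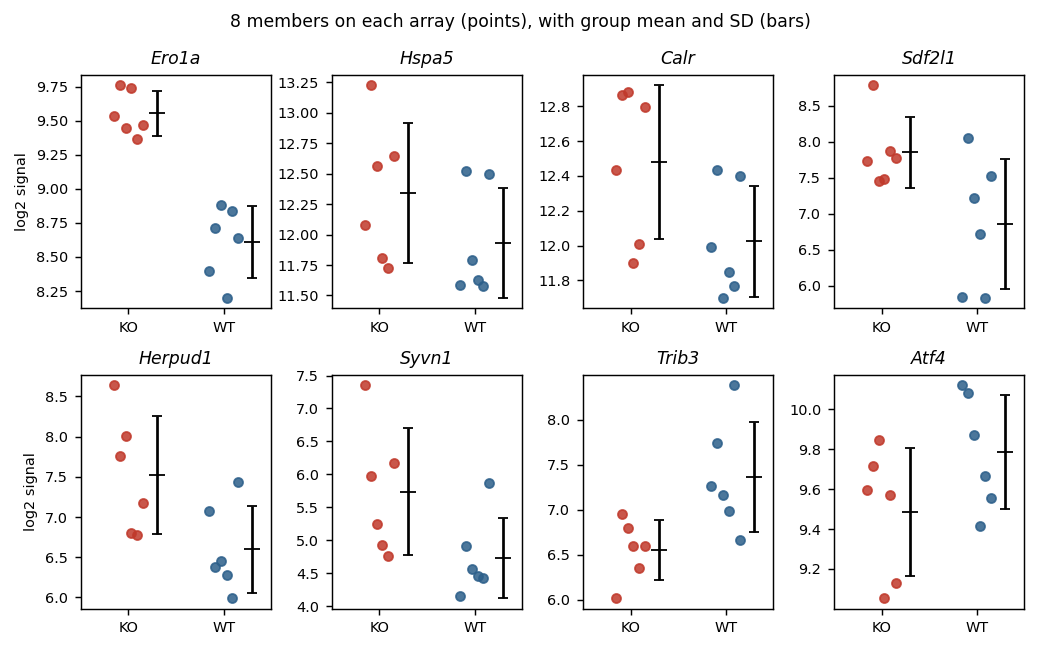
Log2 signal of selected genes on each array, KO tumours left and WT tumours right, with the group mean and SD beside the points. Ero1a is the one whose groups do not overlap.

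For the chaperone branch against the Atf4 branch, each gene was centred on its mean over the 12 arrays and averaged per array over the branch. The chaperone branch came to 0.36, 0.58, 0.01, -0.39, -0.24 and 0.34 in KO tumours 1 to 6, against -0.30, 0.02, -0.14, -0.00, -0.49 and 0.25 in WT tumours 1 to 6, a difference of 0.22. The Atf4 branch lay between -0.24 and 0.13 in KO tumours and between -0.13 and 0.16 in WT tumours, a difference of -0.09. That mean includes Chac1 and Ppp1r15a, which lay at background, and over the 4 tested genes the Atf4-branch difference was -0.14. The chaperone branch minus the Atf4 branch was 0.15 ± 0.33 in KO tumours and -0.15 ± 0.36 in WT tumours (SD, n = 6 each), a difference of 0.31. These SDs describe single tumours and not the error of that difference. No p is given for a mean over members, which were also chosen with earlier results of these data known. With only the members above the filter the branch difference was 0.36. Under the 21 alternatives it stayed positive, between 0.16 with Ero1a counted in the Atf4 branch and 0.63 with the beta-actin covariate. Covariates of milk or luminal markers were not among these 21, so how the branch difference stands with them was not computed. Median centring and the replicate block cannot change this measure and returned the same 0.31.

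Within the groups, different tumours were highest for different genes of the chaperone branch. KO tumour 2 had the highest KO value in 9 of the 24 genes. These were Hspa5, Hsp90b1, Canx, Dnajb11, Sdf2l1, Manf, Pdia3, Pdia6 and Derl2. KO tumour 1 was also highest in 9, mostly in another role, with 6 of the 7 translocation and degradation genes (Sec61b, Herpud1, Edem1, Sel1l, Syvn1 and Derl1) beside Dnajc3, Creld2 and P4hb. KO tumour 4 was lowest in 9 genes, KO tumour 3 in 7 and KO tumour 5 in 5. In the WT group, WT tumour 2 was highest in 8 genes, Calr and 7 of those of KO tumour 2, all but Canx and Derl2. It was the lowest WT tumour for Derl2 and P4hb. WT tumour 6 was highest in 6, all of which (Sec61b, Herpud1, Edem1, Sel1l, Syvn1 and Dnajc3) were also highest in KO tumour 1. It was the lowest WT tumour for Derl1, which was highest in KO tumour 1. WT tumour 5 was lowest in 13, and its array also had the lowest median over all probe sets (3.87). These are descriptions of single tumours, with no test. How often each tumour was highest or lowest over all genes tested was not counted.

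**Figure D4:**
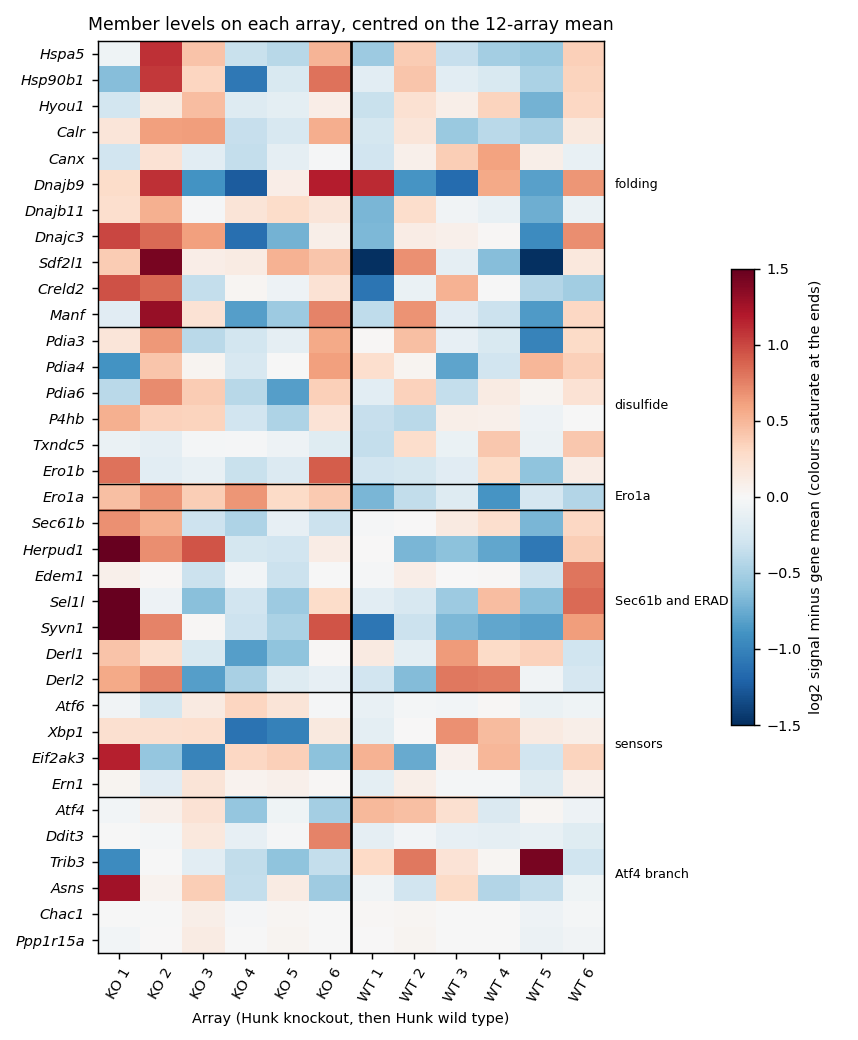
Log2 signal of the 35 genes on each array, centred on the gene's mean over the 12 arrays, with KO tumours left of WT tumours; colours saturate at ±1.5. KO tumours 1 and 2 are high in different genes, and Ero1a is the row that divides by group.

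The caseins, the main secretory load of this tissue, also differed widely between tumours. Csn2 (beta-casein) was 2.30, 13.67, 14.22, 2.24, 2.29 and 14.08 in KO tumours 1 to 6, against 2.25, 12.85, 12.48, 2.25, 2.21 and 2.21 in WT tumours 1 to 6. Hspa5 over the same tumours was 12.08, 13.23, 12.56, 11.80, 11.72 and 12.64 in the KO group, against 11.58, 12.52, 11.79, 11.63, 11.58 and 12.49 in the WT group. The 3 KO tumours with high Csn2 were the 3 highest KO tumours for 7 of the 24 chaperone-branch genes (Hspa5, Hsp90b1, Hyou1, Calr, Manf, Pdia4 and Pdia6) and not for the other 17. The share of all genes tested with this order was not counted, so it cannot be called particular to the branch. KO tumour 3, the highest in Csn2, was the lowest KO tumour for Dnajb11, Sdf2l1, Creld2, Pdia3, Edem1, Sel1l and Derl2. In the WT group Hspa5 was highest in tumours 2 and 6, of which tumour 6 had Csn2 at 2.21 but Csn3 (kappa-casein) at 13.66, and tumour 3, with Csn2 at 12.48, had Hspa5 at 11.79. Csn3 was 5.48, 13.26, 14.07, 7.37, 6.95 and 13.77 in KO tumours, against 12.78, 13.88, 11.45, 11.15, 11.48 and 13.66 in WT tumours.

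With the mean of the milk markers as a covariate, the KO minus WT difference of Hspa5 was 0.18 in place of 0.41 (adjusted p = 0.617), that of Calr 0.30 in place of 0.46, that of Manf -0.06 in place of 0.24 and that of Hsp90b1 -0.20 in place of 0.09. These 4 were chosen after their values beside Csn2 were seen. The milk markers also differed between the groups, by a mean of 1.27 over the 9 tested (8 positive, 1 negative). They varied widely within the groups as well (median residual SD 2.62). The fit thus separates the milk markers from the group only in part. The other chaperone-branch genes with differences above 0.4 moved less in proportion, with Sdf2l1 at 0.81 in place of 0.99, Herpud1 at 0.89 in place of 0.92, Syvn1 at 0.95 in place of 1.01, Creld2 at 0.51 in place of 0.55 and Dnajb11 at 0.42 in place of 0.47. Over the 24 chaperone-branch genes the median difference was 0.07 with the covariate and 0.19 without it. Ero1a differed by 0.92 in that fit (adjusted p = 0.00792), close to its 0.94 without the covariate. With the luminal marker covariate, which itself differed between the groups, the differences of Hspa5, Calr, Manf and Hsp90b1 were negative, at -0.55, -0.20, -0.96 and -1.02. None of the 4 passed in either fit.

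**Figure D5:**
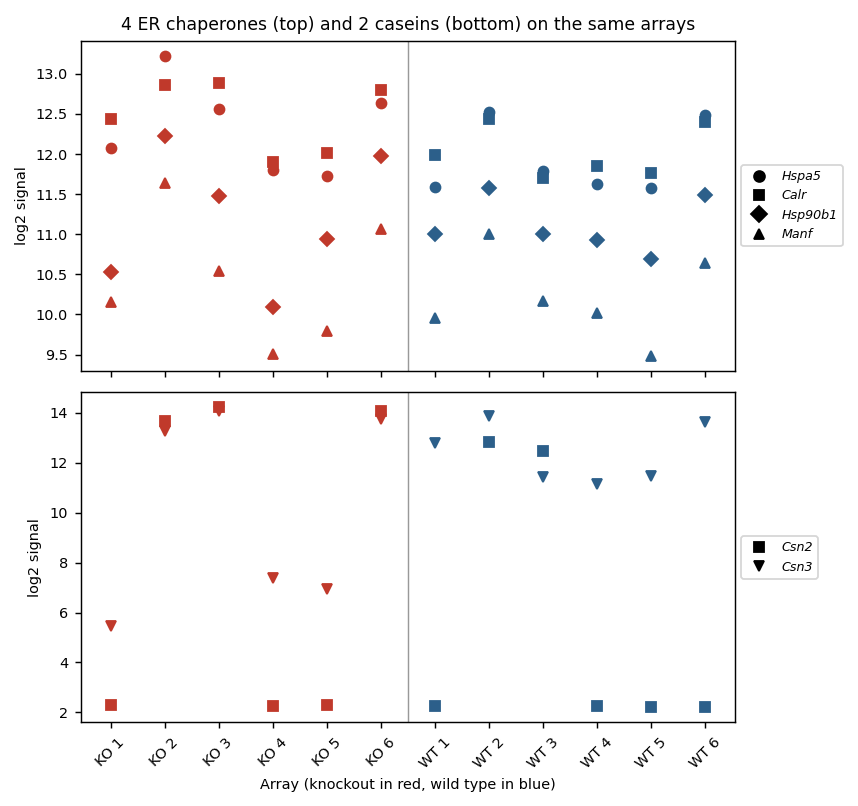
Log2 signal of ER chaperones and of the caseins on each numbered array, KO tumours left of WT tumours. The 3 KO tumours with Csn2 above 13 are those highest in Hspa5, and WT tumour 6 is high in Hspa5 with Csn2 at 2.21.

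The wider pathway was read from lists of 200 other genes, of which 174 were on the array and 154 were tested. 4 were higher in KO tumours, 0 were lower and 150 did not pass (2.60%, against 3.34% of all genes tested), with a median of 0.06. Among ER genes, 0 of 16 other folding factors passed, their most abundant being the proline isomerase Ppib (0.24) and Cnpy2 (-0.34). The same held for 0 of 11 other disulfide genes, with Erp29 at 0.20 and the peroxiredoxin Prdx4 at -0.44. 0 of 28 translocation and glycosylation genes passed, with Rpn1 of the oligosaccharyltransferase at -0.29 and Sec61a1 of the channel at -0.18. In degradation 0 of 18 passed, with the unfolding ATPase Vcp at 0.22 and Selenos at -0.11, and in ER to Golgi transport 0 of 25, with the cargo receptor Tmed9 at -0.16 and the coatomer subunit Copa at 0.04. The medians of these 5 lists ran from -0.08 to 0.20.

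The 4 genes that passed came 1 each from 4 lists of stress regulation and of Atf4 targets. With 1 call each among 11 to 19 tested genes, these lists cannot be told apart from the 3.34% of all genes tested. Ddit4, which restrains mTORC1 under stress, was 10.09 to 10.90 in KO tumours and 7.64 to 9.87 in WT tumours (3.47-fold, log2 1.80, adjusted p = 0.00814), 1 of 19 tested regulators of the integrated stress response (median 0.10). Nupr1, a stress-induced chromatin protein, was 8.31 to 9.71 in KO tumours and 6.52 to 8.23 in WT tumours (3.03-fold, log2 1.60, adjusted p = 0.0223), 1 of 11 other regulators of the unfolded protein response (median -0.13). In neither gene did the groups overlap, and both calls held in all 12 fits with an array left out.

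Cars, the cysteinyl-tRNA synthetase, was 7.02 to 7.79 in KO tumours and 6.63 to 6.88 in WT tumours (1.59-fold, log2 0.67, adjusted p = 0.0244). It was 1 of 13 tested tRNA synthetases, 12 of which had positive differences, with a median of 0.26, and its adjusted p was 0.0554 without WT tumour 4. Slc3a2, the shared heavy chain of several amino acid exchangers, was 9.58 to 10.77 in KO tumours and 8.37 to 9.41 in WT tumours (1.92-fold, log2 0.94, adjusted p = 0.047), 1 of 13 amino acid genes (median -0.02). The Slc3a2 call held in 1 of the 12 fits with an array left out, with adjusted p up to 0.095. With the luminal marker covariate the adjusted p of Ddit4, Nupr1, Cars and Slc3a2 was 0.446, 0.37, 0.38 and 0.93, and with the beta-actin covariate 0.111, 0.0379, 0.143 and 0.473. Atf4 and the 3 tested targets among the members, Ddit3, Trib3 and Asns, did not pass beside them.

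Markers of the cell types that a mammary tumour can hold were read from lists of known markers, summed over each list on the linear scale and given as log2. Milk and alveolar markers (10 genes) summed to 10.42 to 15.85 in KO tumours and 11.52 to 14.80 in WT tumours. 1 of 9 tested was higher, Elf5, a factor of alveolar differentiation (log2 2.12, adjusted p = 0.049, held in 2 of the 12 fits with an array left out). Luminal epithelial markers (9 genes) summed to 14.04 to 14.59 in KO tumours and 13.62 to 14.29 in WT tumours, and all were above background on some array. 2 of the 9 were higher, Krt19 (log2 4.08, adjusted p = 0.0424, held in 3 of the 12 fits with an array left out) and Cd24a (log2 0.87, adjusted p = 0.0244, lost without KO tumour 5 or WT tumour 4, with adjusted p up to 0.0611). Krt18, the most abundant of the list, had a difference of -0.17 (adjusted p = 0.802). As shares of these short lists, the calls were 11.1% (milk) and 22.2% (luminal), against 3.34% of all genes tested. With the beta-actin covariate the adjusted p was 0.399 for Krt19, 0.268 for Cd24a and 0.196 for Elf5. Their part in the Ero1a difference was not tested, and the fit with the luminal covariate cannot separate it from the group.

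Plasma cells, which are rich in ER chaperones, were looked for with 10 genes. Cd79a, Cd79b, Tnfrsf17, Irf4 and Pou2af1 were at background on all 12 arrays, the sum was 8.41 to 9.11 in KO tumours and 8.69 to 10.31 in WT tumours, and 0 of 3 tested passed (Sdc1 at -0.67, Ighm at -0.02). Macrophage markers (12 genes) summed to 10.56 to 11.86 in KO tumours and 11.12 to 11.88 in WT tumours, with 0 of 12 past the test, 11 negative and a median of -0.31 (Lyz2 -0.18, C1qb -0.66). Fibroblast markers (9 genes) summed to 11.09 to 12.58 in KO tumours and 10.72 to 11.88 in WT tumours, 0 of 4 passed with a median of 0.68 (Col3a1 0.94, Col1a1 0.71), and Dcn, Lum, Pdgfra, Fap and Thy1 were at background on all arrays. Adipocyte markers (7 genes) summed to 8.06 to 11.81 in KO tumours and 7.97 to 10.25 in WT tumours, with 0 of 3 past the test (Fabp4 1.51, Lpl 0.62) and Retn, Pparg and Lep at background.

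Basal epithelial markers (7 genes) summed to 9.31 to 10.61 in KO tumours and 8.88 to 10.54 in WT tumours, with 0 of 5 past the test (Acta2 0.24, Krt14 2.52) and Myh11 and Oxtr at background. Endothelial markers had 5 of 8 genes at background, among them Pecam1, Cdh5 and Kdr, and summed to 6.09 to 6.37 in KO tumours and 5.95 to 6.26 in WT tumours; 1 was tested (Emcn -0.03), and Tek lay below the filter. T and NK cell markers had 6 of 7 at background, Cd3g, Cd3d and Cd8a among them, and summed to 5.84 to 6.16 in KO tumours and 5.79 to 6.00 in WT tumours (Cd3e 0.02). Of the muscle markers 1 gene was tested, Acta1, which did not pass (0.29), Myh4 lay below the filter, and the list summed to 12.69 in KO tumour 3, against at most 6.27 in the other KO tumours and 8.84 in WT tumours. The part of these cell types in the differences of the 35 genes was not tested.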

How the data were processed

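RNA of 12 mammary tumour arrays (6 KO, 6 WT; groups from the genotype labels) was measured on Affymetrix mouse arrays. The authors deposited log2 values, 1 table of 22690 probe sets with 0 missing values between -0.07 and 14.72, and the submitters' processing notes list GCRMA without a version. GCRMA pulls low signals toward a floor, which compresses differences of dim genes. Values were used as deposited, and 0 columns were left unused. Platform symbols (20393 probe sets had 1, 691 several and 1606 none listed) were updated through gene identifiers to RefSeq, assembly GRCm38.p6, whose promoter table gave the sequences.

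The probe set of highest mean stood for its gene. Genes with a mean above 3.98 were tested with limma 3.58.1 (lmFit, eBayes with trend, group as the only term) in R 4.3.3, with Benjamini-Hochberg adjustment over 6825 genes at 0.05. Intervals are at 95%. Figures were drawn with matplotlib 3.10.9. Steps were tested on simulated data.

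The members, lists and tests were chosen with earlier results of these data known. The rule for naming was all 35 members, and of each list up to 4 genes past the threshold or else the 2 of highest mean, with the most abundant marker of each cell type list. Alternatives were other filters, eBayes settings, normalizations, weights, covariates, gene summaries, the replicate number as a block, KO tumours 4 and 5 averaged, and each array left out. Scan dates were not given in the sources used here, so no batch was tested, and no detection calls were used.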

Additional observations from a re-analysis of the deposited data

Results flagged for a closer look

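In each group of 6, the highest and lowest sample of the 35 members and of the 3 branch measures were compared with the rest by Dixon's test. 4 of 76 such groups held a sample far from the others, and chance gives about 1 in 20. Sdf2l1 read 8.79 in KO tumour 2, against 7.46 to 7.88 in the other KO tumours. Ddit3 read 6.04 in KO tumour 6, against 5.17 to 5.45 in the other KO tumours. In the WT group Sec61b read 10.37 in tumour 5, against 11.04 to 11.36 in the others, and Edem1 read 7.52 in tumour 6, against 6.41 to 6.82 in the others.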

How the results depend on the processing

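Over 26 alternatives, 1 member (Ero1a) was higher in 24 and 0 members were lower in all 26. The count of higher members was 0 with the beta-actin and 0 with the luminal marker covariate, and 1 in every fit with an array left out, where its log2 difference was 0.86 to 1.00. The count of all genes past the threshold, 228 in the fit reported, was 112 with no filter, 390 with array weights, 72 with the beta-actin covariate, 2 with the luminal marker covariate, 125 with KO tumours 4 and 5 averaged, and 95 to 212 with an array left out. It was 95 without WT tumour 4, 138, 135 and 130 without KO tumours 4, 5 and 6, and 150 without WT tumour 5. The cause was not tested. With the replicate number as a block 69 genes passed, Ero1a (adjusted p = 0.0499), Krt19, Cd24a and Elf5 among them. In that fit Ddit4 (0.0574), Nupr1 (0.0838), Cars (0.0876), Slc3a2 (0.0904), Aldoa (0.0552), Ldha (0.0672) and Pgam1 (0.109) did not pass by adjusted p. Samples of the same number had correlations of -0.04 to 0.14 in their deviations from the group means. 3 of 6 numbers correlated best with their own. With 6 numbers this cannot decide whether samples of the same number were paired. The chaperone minus Atf4 branch difference was 0.21 to 0.41 with an array left out and 0.16 to 0.63 over its 21 alternatives, which did not include the milk or luminal marker covariate. Of 823 pairs of a member and an alternative, 60 changed sign, in 18 of the 32 members, and 0 passed other than for Ero1a. With 6 arrays a group, 25 of the 32 intervals include 0, and Atf6, Chac1 and Ppp1r15a lay too near background for a difference.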
